A study of Mus musculus with 6 samples.

Results

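FTO and the proteins ALKBH1 to ALKBH8 are the mammalian members of the AlkB family, oxygenases that use iron, oxygen and 2-oxoglutarate to strip methyl groups from, or hydroxylate, nucleic acids and proteins. The genes described are Fto and Alkbh1 to Alkbh8, taken by name from the deposited expression table, where all 9 were found among 19739 genes. The samples were 6 libraries of poly(A) RNA from primary mouse BMSCs, mesenchymal stromal cells of the bone marrow and precursors of its bone, fat and cartilage cells. They are the inputs of m6A sequencing, made without enrichment for the mark. In 3 libraries, called WT here, an adeno-associated virus (AAV) had delivered the WT form of FTO. In the other 3, called 3KR, the virus carried the form labelled 3KR, a name that the labels do not spell out. Overexpression of FTO was thus shared by both groups, and no uninfected cells are analysed here. The labels give neither the mouse strain and age, nor the promoter and species of the FTO sequence in the vector, nor the animals or cultures behind each library. The p-values therefore cover only how these libraries vary, which can be technical variation.

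Members of the family differ in what they act on. FTO and ALKBH5 remove the N6-methyladenosine (m6A) mark from RNA, and FTO also acts on m6Am, the related mark beside the messenger RNA cap. ALKBH2 and ALKBH3 repair alkylated bases, ALKBH1 and ALKBH8 modify transfer RNA, ALKBH4 acts on methylated actin, and ALKBH7 is a mitochondrial protein involved in programmed necrosis. In BMSCs, m6A on RNA is known to influence whether the cells turn towards bone or fat.

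Values are FPKM, fragments scaled by the length of the transcript and by the fragments of the library, which can be compared between genes within a library. No read counts came with them, so the depth is unknown and no counting interval is given. Summed FPKM ran from 390527 to 391767 over the WT libraries and from 408605 to 421234 over the 3KR libraries, and the log2 difference of the median tested gene was 0.15. Differences were therefore read under 4 scalings: as deposited, after rescaling to the same sum, after median ratio scaling and after quantile normalization. All 10 markers of marrow stroma on the list were high enough to test, with a median of 87.7 FPKM over the list in WT and 89.3 in 3KR. Of these 6 were lower (60.0%), led by Ly6a, Col1a1 and Col1a2, and 2 higher (20.0%) in 3KR under all 4 scalings. Among all tested genes 14.0% were called lower and 46.7% higher as deposited. The summed FPKM of the list, most of it Col1a1 and Col1a2, was 3378 to 3538 in WT and 1699 to 1754 in 3KR. The mean of each of 9 macrophage markers was lower in 3KR. Together they summed to 8.22 to 9.004 FPKM in WT, most of it Mpeg1, and 1.17 to 1.82 in 3KR. Of the 9, 8 had a mean under 1 FPKM over the libraries. C1qa and C1qb were listed at 0 in each 3KR library and at 0 to 0.0573 FPKM in WT. The groups overlapped for C1qa and for Csf1r, which was at 0.209 to 0.369 FPKM in WT and 0.191 to 0.24 in 3KR. Endothelial markers summed to 5.10 to 6.25 FPKM in WT and 1.84 to 2.12 in 3KR, most of it Tek, while Tie1 was listed at 0 in every library. Kdr went the other way without overlap, at 0.0423 to 0.214 FPKM in WT and 0.231 to 0.41 in 3KR, and 4 of the 6 means were lower in 3KR. Of these lists only Mpeg1 and Tek entered the test, and both were called lower under all 4 scalings. Mpeg1 was at 6.46 to 6.98 FPKM in WT and 0.437 to 1.07 in 3KR, so WT alone brought it past the minimum for testing. In bulk RNA, fewer cells of a type and less RNA per cell cannot be told apart, and the part of these cells in the results below was not tested.

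The promoters of 3 members are shown. That of Fto concerns what the FPKM of Fto can and cannot separate, and with that of Alkbh5 it sets the m6A demethylases side by side. That of Alkbh4 holds a motif also found in that of Fto. The RefSeq windows (build GRCm38.p6) run from 250 bases before to 50 after an annotated start, and each of the 9 members matched at least 1. The endogenous Fto gene starts back to back with Rpgrip1l, which encodes a protein of the ciliary transition zone and is read from the opposite strand. The start sites lie 303 bases apart, so the first 198 bases of the Fto window also lie in the Rpgrip1l window. The Fto window is chr8:91313275-91313574 on the plus strand. Capitals mark ACTAC and TCCCAG with 3 bases between them, read here on the opposite strand, the kind of motif known for the factors ZNF143 and THAP11.
Fto: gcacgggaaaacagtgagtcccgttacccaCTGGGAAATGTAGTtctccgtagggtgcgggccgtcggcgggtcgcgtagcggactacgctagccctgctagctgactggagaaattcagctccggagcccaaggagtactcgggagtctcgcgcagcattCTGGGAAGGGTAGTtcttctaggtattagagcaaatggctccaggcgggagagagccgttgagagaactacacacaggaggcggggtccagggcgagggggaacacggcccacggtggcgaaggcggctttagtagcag
The first Alkbh4 window, of 3, is chr5:136135895-136136194 on the plus strand, with the same motif and CCGGAAG, the core known for ETS factors, in capitals.
Alkbh4: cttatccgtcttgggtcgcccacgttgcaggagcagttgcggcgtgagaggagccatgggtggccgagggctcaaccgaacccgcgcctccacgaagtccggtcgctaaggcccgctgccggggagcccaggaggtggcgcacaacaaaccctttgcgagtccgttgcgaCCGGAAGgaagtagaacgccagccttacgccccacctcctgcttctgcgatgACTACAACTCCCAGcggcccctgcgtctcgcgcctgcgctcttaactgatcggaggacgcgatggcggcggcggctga
The Alkbh5 window is chr11:60537433-60537732 on the plus strand, with GCGTG, a core known for hypoxia-inducible factors, and CCAAT in capitals.
Alkbh5: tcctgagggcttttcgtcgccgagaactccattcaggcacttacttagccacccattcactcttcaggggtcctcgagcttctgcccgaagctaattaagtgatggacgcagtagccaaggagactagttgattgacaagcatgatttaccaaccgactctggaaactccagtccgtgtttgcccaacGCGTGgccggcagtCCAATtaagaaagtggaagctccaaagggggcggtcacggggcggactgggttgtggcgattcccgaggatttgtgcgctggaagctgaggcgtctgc

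The motifs were chosen after the sequences had been seen and were searched on both strands. The 9 members have 11 windows in the table, 3 of them of Alkbh4, and all shares are of windows. The motif of ACTAC and TCCCAG was found in 3 of the 11, that of Fto (at 2 places) and a pair of overlapping Alkbh4 windows that hold the same site, against 1.2% of 32817 RefSeq windows. Both places in the Fto window fall in the stretch shared with Rpgrip1l. CCGGAAG was found in 4 of the 11, of Alkbh1, Alkbh2, Alkbh3 and Alkbh4, against 8.86% of all windows. GCGTG stood in 5 of the 11 against 32.4%, ACGTG in 2 against 19.6%, CCAAT in 5 against 37.4% and TATAAA in none against 13.6%. These are matches of letters, and binding was not measured. The windows compared were not matched for base composition. The medians over all 32817 were 52.7% GC and 7 CpG (C followed by G). Windows of the members held 13 to 33 CpG, apart from that of Alkbh8 (5) and the third of Alkbh4 (6).

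Fto stood far above the rest of the family in both groups. Its FPKM was 256, 250 and 269 in WT replicates 1, 2 and 3 and 422, 436 and 470.2 in 3KR replicates 1, 2 and 3. All 3KR libraries lay above all WT libraries. Among all genes its rank was between 181 and 197 in the WT libraries and between 95 and 104 in the 3KR libraries. The mean rose 1.71-fold, a log2 difference of 0.77 with a 95% confidence interval of 0.66 to 0.88 (limma adjusted p = 4.497e-06), and the call held under all 4 scalings, with log2 differences from 0.60 to 0.77. That difference exceeded those of 96.9% of tested genes. Fragments from the vector and from the endogenous gene are not separated in this value. The length of the vector transcript is not known, so the scaling by length may not fit it. This limits how far the level, rank, ratios and shares of Fto can be set against other genes, here and below.

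Rpgrip1l is the endogenous neighbour that shares part of the Fto promoter window. It was at 4.53, 4.07 and 4.27 FPKM in the WT libraries and at 8.60, 8.07 and 8.54 in the 3KR libraries, with no overlap. It rose 1.96-fold, from 4.29 ± 0.230 to 8.41 ± 0.289 FPKM (SD, n = 3), a log2 difference of 0.83 (limma adjusted p = 6.973e-06) called under all 4 scalings. The ratio of means was 1.71 for Fto, at a far higher level, and how much of the Fto value comes from the endogenous gene was not tested.

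**Figure D1:**
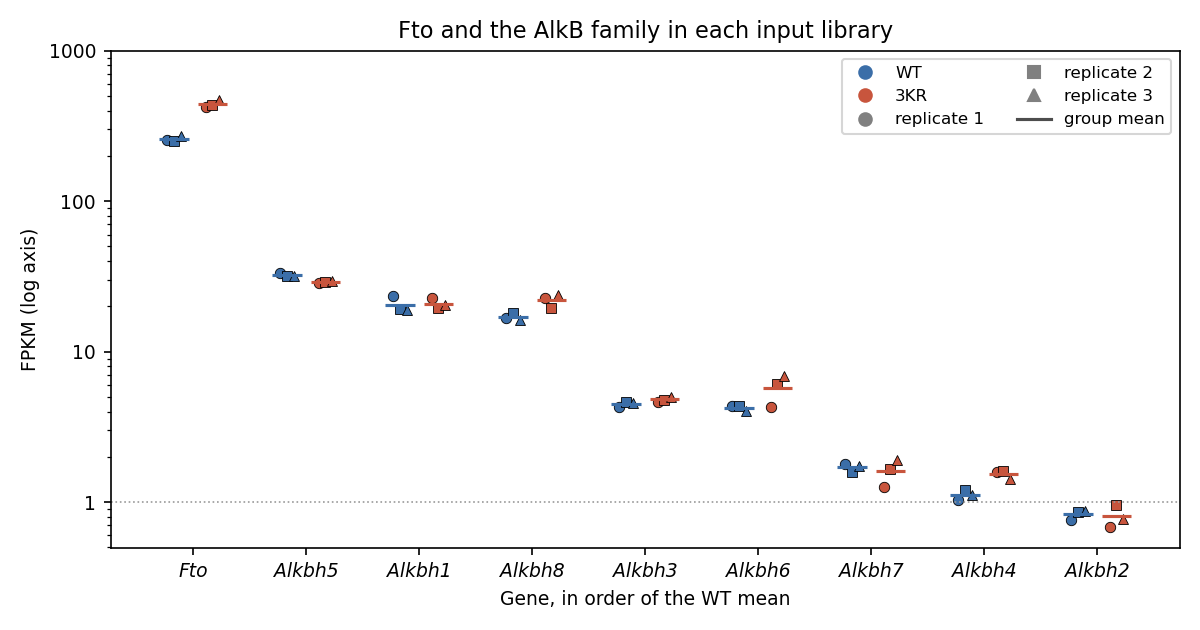
FPKM of Fto and Alkbh1 to Alkbh8 on a log axis in the 3 WT and 3 3KR libraries, with points for libraries, marker shapes for replicates, horizontal lines for group means and a dotted line at 1 FPKM. Fto lies between 250 and 470.2 FPKM and each other member below 34, with the groups apart for Fto, Alkbh5, Alkbh8, Alkbh4 and, narrowly, Alkbh3.

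Alkbh5, the other m6A demethylase, was the highest of the endogenous members and lower in 3KR. Its FPKM was 33.3, 31.6 and 31.8 in WT and 28.5, 28.9 and 29.4 in 3KR, and no 3KR library reached a WT library. The fall was small, from 32.2 ± 0.958 to 29.0 ± 0.456 FPKM (SD, n = 3), with a log2 difference of -0.15 and a 95% confidence interval of -0.24 to -0.06 (limma adjusted p = 0.01155). It was called under all 4 scalings, and median ratio scaling gave a log2 difference of -0.31 (limma adjusted p = 2.49e-04). Its SD was 2.97% of the mean in WT and 1.57% in 3KR, the smallest relative spread in the family in each group.

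A ratio within a library does not depend on the scaling between libraries, so the demethylases were also set against each other. The Fto to Alkbh5 FPKM ratio was 7.68, 7.91 and 8.48 in WT and 14.8, 15.1 and 16.0 in 3KR. The mean ratio went from 8.02 ± 0.412 to 15.3 ± 0.614 (SD, n = 3), and the mean log2 ratio was 0.93 higher in 3KR in libraries that did not overlap. An exact permutation test, two-sided, gave p = 0.1, the smallest that 3 against 3 libraries allow. Fto made up 74.9%, 75.4% and 77.3% of the summed FPKM of the 9 genes in WT and 83.0%, 84.0% and 84.0% in 3KR (exact permutation p = 0.1, the smallest possible). The 8 other genes together summed to 82.1 ± 3.37 FPKM in WT and 86.4 ± 3.33 in 3KR, in overlapping ranges (exact permutation p = 0.2). Over the 6 quantities compared within libraries, the Benjamini-Hochberg adjusted p was 0.15 for each of the 4 with an exact permutation p of 0.1.

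**Figure D2:**
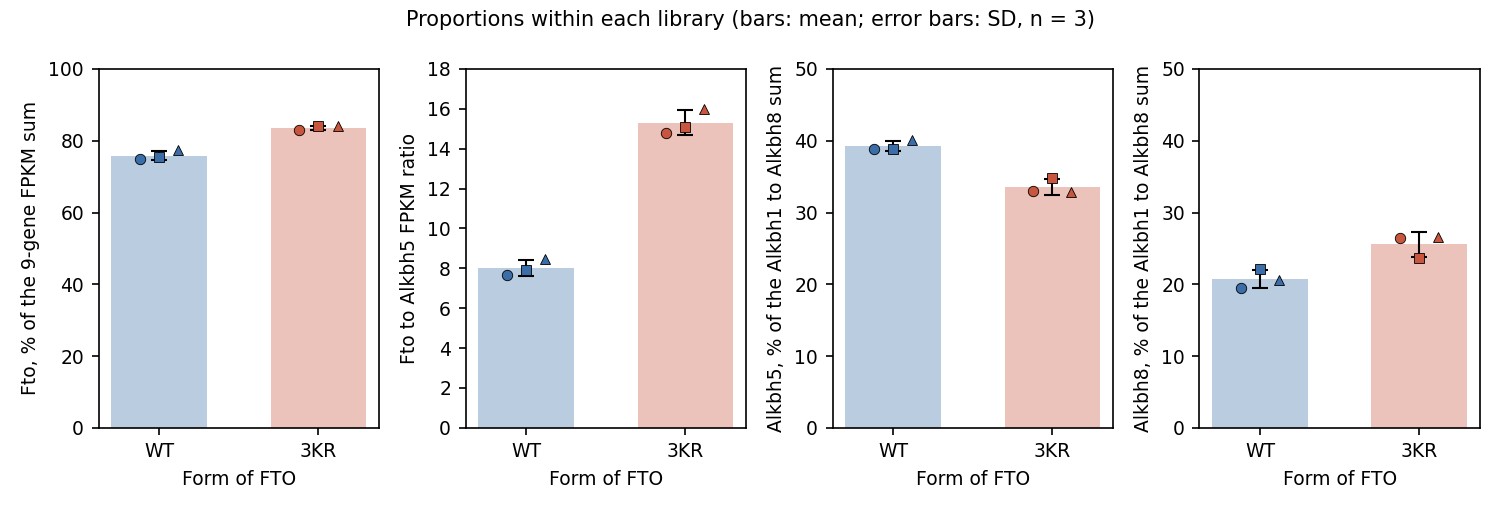
Proportions computed within each library for WT and 3KR, from left to right Fto as a percent of the 9-gene FPKM sum, the Fto to Alkbh5 FPKM ratio, and Alkbh5 and Alkbh8 as percents of the Alkbh1 to Alkbh8 sum. Bars are means, error bars SD (n = 3), points libraries, and the groups do not overlap in any of the 4 panels.

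Among the transfer RNA enzymes, Alkbh8 encodes an enzyme with both a methyltransferase and an oxygenase part that modifies uridine at the wobble position of the anticodon. It was at 16.7, 18 and 16.3 FPKM in WT and 22.9, 19.6 and 23.9 in 3KR, with all 3KR libraries above WT. The mean rose from 17.02 ± 0.875 to 22.1 ± 2.22 FPKM (SD, n = 3), 1.30-fold, with a log2 difference of 0.36 and a 95% confidence interval of 0.19 to 0.53 (limma adjusted p = 0.003634). The call was lost after median ratio scaling, where the difference was 0.19 (limma adjusted p = 0.05453), and held under the 3 other scalings. Within the endogenous members, the share of Alkbh8 went from 20.7% ± 1.33 to 25.6% ± 1.67 while that of Alkbh5 went from 39.3% ± 0.718 to 33.5% ± 1.08 (SD, n = 3, exact permutation p = 0.1 for each, the smallest possible). The share of Alkbh1 was 24.9% ± 2.2 in WT and 24.1% ± 1.79 in 3KR (exact permutation p = 0.5).

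Alkbh1, which acts on methylated and mitochondrial transfer RNA, was at 23.5, 19.1 and 18.8 FPKM in WT and 22.6, 19.5 and 20.4 in 3KR. Replicate 1 was the highest library in each group, and the groups overlapped fully. The log2 difference was 0.03, with a 95% confidence interval of -0.18 to 0.24 (limma adjusted p = 0.7888), so a change within that interval in either direction cannot be told from none. Its sign turned under the 3 other scalings, to -0.13 after median ratio scaling.

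The genes for repair of alkylated bases lay lower. Alkbh3, which repairs single-stranded DNA and RNA, was at 4.30, 4.63 and 4.57 FPKM in WT and 4.65, 4.79 and 5.02 in 3KR. The ranges were adjacent without overlap, and the log2 difference of 0.08 did not pass the test (95% confidence interval -0.05 to 0.21, limma adjusted p = 0.2327), with its sign turned after median ratio scaling and quantile normalization. Alkbh2, which repairs double-stranded DNA, was the lowest member, at 0.760, 0.865 and 0.878 FPKM in WT and 0.688, 0.956 and 0.772 in 3KR. It stayed below the minimum for testing, 1 FPKM in at least 3 libraries, and the 3KR range enclosed the WT range. Without that minimum its log2 difference was -0.03 (limma adjusted p = 0.8073).

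Alkbh4, which demethylates a lysine of actin, was at 1.04, 1.21 and 1.11 FPKM in WT and 1.58, 1.60 and 1.42 in 3KR. The groups did not overlap, and the mean rose from 1.12 ± 0.0861 to 1.53 ± 0.0959 FPKM (SD, n = 3), a log2 difference of 0.26 (95% confidence interval 0.10 to 0.41, limma adjusted p = 0.01204). The pseudocount of 1 shrinks this difference, which was 0.42 with a pseudocount of 0.1. The call was lost after median ratio scaling (0.16, limma adjusted p = 0.0976) and quantile normalization (0.15, limma adjusted p = 0.1195).

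In Alkbh6 and Alkbh7, 1 library of the 3KR group stood apart from the others. Alkbh6 was at 4.34, 4.33 and 4.03 FPKM in WT and 4.26, 6.07 and 6.88 in 3KR, so that 3KR replicate 1 lay among the WT libraries. The log2 difference was 0.34 (95% confidence interval 0.04 to 0.65) and missed the threshold after adjustment (limma adjusted p = 0.05217). Without 3KR replicate 1 it was 0.51 (limma adjusted p = 9.146e-04), and without 3KR replicate 3 it was 0.22 (limma adjusted p = 0.1602). Alkbh7 was at 1.80, 1.58 and 1.75 FPKM in WT and 1.26, 1.67 and 1.89 in 3KR, where replicate 1 was again the lowest. Its log2 difference of -0.06 (95% confidence interval -0.29 to 0.16, limma adjusted p = 0.6034) turned to 0.04 without 3KR replicate 1. The SD was 23.4% of the 3KR mean for Alkbh6 and 20.0% for Alkbh7, against 4.12% and 6.68% in WT.

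Of the 8 members tested, 3 were called higher in 3KR (Fto, Alkbh8 and Alkbh4) and 1 lower (Alkbh5), at a limma adjusted p under 0.05 as deposited. Across all 10985 genes tested 60.6% were called, 46.7% higher and 14.0% lower, so a call in itself was common and the members' share lay below it. The groups did not overlap for 5 of the 8, against 66.7% of all tested genes. The median log2 difference of the tested members was 0.17, beside 0.15 for all tested genes. After median ratio scaling only Fto and Alkbh5 of the members were called, while 45.7% of all genes were, 21.6% higher and 24.1% lower. Rescaling to the same sum called 51.6% of all genes and quantile normalization 48.5%. Relative to the median gene as deposited, Fto was 0.62 higher, Alkbh8 0.21 higher and Alkbh5 0.30 lower (a relative log2 difference of -0.30).

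**Figure D3:**
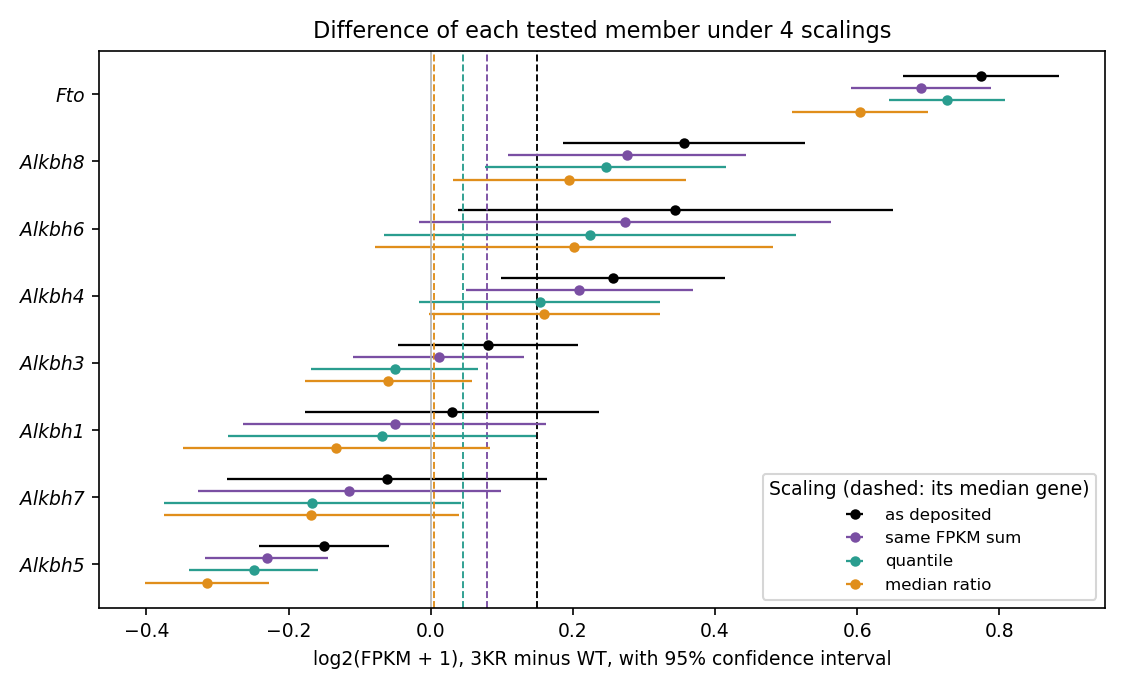
Difference of log2(FPKM + 1), 3KR minus WT, for the 8 tested members under 4 scalings, with 95% confidence intervals from limma and dashed lines at the median gene of each scaling. Fto stays between 0.60 and 0.77 and Alkbh5 between -0.31 and -0.15, while the interval of Alkbh4 reaches 0 after quantile normalization and median ratio scaling.

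The order of the levels was Fto, Alkbh5, Alkbh1, Alkbh8, Alkbh3, Alkbh6, Alkbh7, Alkbh4 and Alkbh2 in WT. Only Alkbh3 and Alkbh6 overlapped among neighbours in that order. In 3KR, Alkbh8 stood before Alkbh1 and Alkbh6 before Alkbh3, but the ranges of each of these pairs overlapped, as did those of Alkbh7 and Alkbh4. Fto was 8.02 times the next member in WT and 15.3 times in 3KR, and Alkbh2 was last in both.

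The genes whose profile over the 6 libraries lay nearest to that of Fto, out of 10436 compared, were Tnfaip2, Cpe, Smad7, Pspc1 and Acyp1. The measure was the Euclidean distance of log2(FPKM + 1) after subtracting each gene's mean, from 0.0607 for Tnfaip2 to 0.099 for Acyp1. Tnfaip2, a gene induced by tumour necrosis factor, went from 22.7 ± 0.733 to 39.1 ± 2.10 FPKM (SD, n = 3). Smad7, the inhibitor of transforming growth factor beta signalling, went from 3.69 ± 0.243 to 7.01 ± 0.333 FPKM. Nearest to Alkbh5 were Slc38a10, Anpep, Plscr3, Efemp2 and Esyt1, at distances of 0.0354 to 0.0433. With 2 groups of 3 libraries, such likeness mainly reflects a difference of the same size between the groups.

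Genes whose products work with the AlkB enzymes, or also serve in repair of alkylated bases or modification of transfer RNA, showed small differences. Of 20 tested, 7 were called higher (35%) and none lower as deposited, below the 46.7% and 14.0% of all tested genes, and the median log2 difference of 0.12 lay below the 0.15 of all genes. With median ratio scaling, 1 of the 20 passed upward and 4 downward, beside 21.6% and 24.1% of all tested genes. Pcna, the replication clamp that ALKBH2 binds, rose from 14.4 ± 0.982 to 18.5 ± 1.57 FPKM (SD, n = 3), and Otud4, a deubiquitinase known to stabilize ALKBH2 and ALKBH3, from 11.9 ± 0.158 to 14.2 ± 0.293, both called under 3 of the 4 scalings and not after median ratio scaling. Trmt112, the partner of the methyltransferase part of ALKBH8, was at 2.83 ± 0.132 and 3.13 ± 0.196 FPKM (limma adjusted p = 0.1622). Ascc3, the helicase that works with ALKBH3, was at 42.7 ± 0.789 and 42.8 ± 1.03 FPKM (limma adjusted p = 0.9503 as deposited, called lower after median ratio scaling).

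Among other enzymes of the same 2-oxoglutarate chemistry, more were called lower than higher as deposited and after median ratio scaling. The margin depended on the scaling. Of 44 tested, 14 were called lower (31.8%), all of them under the 4 scalings, beside 14.0% of all tested genes. A further 11 were called higher (25.0%), 2 of them under all 4, beside 46.7% of all tested genes. Most of the 14 were collagen hydroxylases, namely P4ha1, P4ha2, P4ha3, Plod1, Plod2, Plod3, P3h1 and P3h3, while P3h2 was not called. With median ratio scaling, 26 passed downward and 2 upward, beside 24.1% and 21.6% of all genes. The median log2 difference as deposited was -0.04, beside 0.15 for all tested genes. Asphd2, called higher under all 4, was at 0.849, 1.15 and 0.962 FPKM in WT and 1.74, 1.85 and 2.07 in 3KR. Only through 3KR did it pass the minimum for testing. Ogfod3, called lower, passed it only through WT, at 1.45, 1.22 and 1.14 FPKM in WT and 0.597, 0.782 and 1.01 in 3KR. Phyhd1, a relative of phytanoyl-CoA hydroxylase, fell from 8.66 ± 1.56 to 2.10 ± 0.615 FPKM (SD, n = 3, limma adjusted p = 6.245e-05). P4ha1, a collagen prolyl hydroxylase, fell from 181 ± 4.47 to 80.9 ± 3.398 FPKM (limma adjusted p = 1.867e-07). Egln1, the oxygen sensor that marks hypoxia-inducible factor for decay, fell from 15.1 ± 0.510 to 9.19 ± 0.183 FPKM (limma adjusted p = 8.85e-06). The next list held genes for the supply or use of 2-oxoglutarate and for the removal of metabolites that inhibit these enzymes. Of 22 tested, 14 were called higher (63.6%), 6 of them under all 4 scalings, beside 46.7% of all tested genes. The 3 called lower (13.6%, beside 14.0% of all tested genes) were so under all 4. Ogdh, Ogdhl and Dlst, whose products are of the kind that uses up 2-oxoglutarate, were among the 14. With median ratio scaling, 6 of the 22 passed upward and 4 downward, beside 21.6% and 24.1% of all tested genes. One of the 14, Slc25a10, a mitochondrial dicarboxylate carrier, reached the minimum for testing only in 3KR and so had to differ to be tested, at 0.785, 0.759 and 0.758 FPKM in WT and 1.34, 1.55 and 1.57 in 3KR. Psat1, a serine synthesis enzyme that yields 2-oxoglutarate, fell from 126 ± 4.38 to 71.9 ± 3.38 FPKM (limma adjusted p = 2.865e-06).

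Genes that write and read the mark that FTO and ALKBH5 remove were tested in the same way. Of 11 tested genes for methyltransferases and other parts of the writer complex, 4 were called higher (36.4%, below the 46.7% of all tested genes) and none lower. Mettl3, 1 of the 4, was called only as deposited (limma adjusted p = 0.0472). Of the 4, Zc3h13 and Virma were called under all 4 scalings, and the median log2 difference of the 11 was 0.15, as for all tested genes. Zc3h13, a regulator of the writer complex, rose from 11.2 ± 0.0517 to 14.6 ± 0.324 FPKM (SD, n = 3) and Virma, its scaffold, from 7.76 ± 0.0970 to 9.86 ± 0.322, while Rbm15, which directs the complex to RNA, rose from 4.67 ± 0.565 to 6.69 ± 0.885 under 3 of the 4 scalings and not after median ratio scaling. Of 12 tested readers, 10 were called higher (83.3%, beside 46.7% of all tested genes) as deposited. Only 3 of the 12, the same number as under all 4 scalings, were called higher after median ratio scaling, beside 21.6% of all tested genes. Fmr1 was called lower under all 4, and the median log2 difference was 0.23. Hnrnpa2b1, a nuclear RNA-binding protein, rose from 61.7 ± 0.705 to 79.8 ± 0.504 FPKM and Igf2bp2, which stabilizes bound messenger RNA, from 45.4 ± 2.20 to 57.9 ± 2.34, both under all 4 scalings. Rbmx, a nuclear splicing regulator, was at 149.5 ± 17.2 and 188 ± 20.9 FPKM and was called higher under 2 of the 4.

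**Figure D4:**
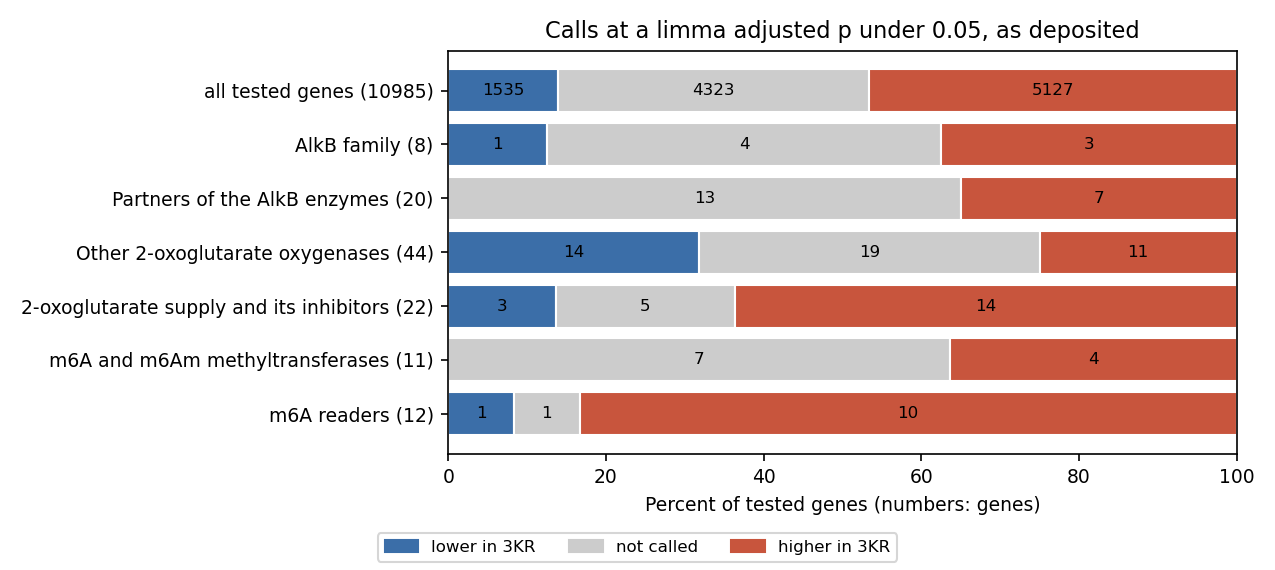
Percent of the tested genes of each list called lower (blue), not called (grey) or called higher (red) in 3KR at a limma adjusted p under 0.05 as deposited, with the number of genes in each bar and the tested genes in brackets. All 10985 tested genes, in the top bar, are the background, with 5127 higher and 1535 lower.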

How the data were processed

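Transcript levels were taken from 1 table of 6 input libraries (3 WT, 3 3KR) in FPKM, as deposited and per the file headers. What aligner, quantifier or annotation was used is not given in the sources used here, and the only build named, GRCh38 per the submitters' processing notes, is human, so no coordinates were taken from the files. Of 19763 rows, 24 repeated a name and of those the highest row was used. Genes at 1 FPKM or more in at least 3 of 6 libraries, 10985 in all, were compared on log2(FPKM + 1) with limma 3.58.1 in R 4.3.3 (intensity trend, Benjamini-Hochberg over all tested genes, threshold 0.05). No whole-read steps were found (the most frequent ratio was shared by 5 of 4714 low genes), so depth is unknown. Ratios within libraries were compared by exact permutation. The genes named were the members, the 5 likest to Fto and to Alkbh5, the 3 called members of each list with the largest difference, and Trmt112, Ascc3, Otud4 and Rpgrip1l. Of these, 2 list genes are not reported here. Fmr1, Mettl3, Csf1r, C1qa, C1qb, Kdr, Tie1 and Vim were named after their values were seen. The same holds for Asphd2, Ogfod3, Ogdh, Ogdhl, Dlst and the collagen hydroxylases other than P4ha1. Older symbols were matched through RefSeq for listed genes. The members and lists were chosen with earlier results of these data known. Alternatives were 3 other scalings, a pseudocount of 0.1, other filters, a replicate block, no trend, and leaving out each library.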

Additional observations from a re-analysis of the deposited data

How the results depend on the processing

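Fto and Alkbh5 kept their direction and call under every alternative run, Fto with a log2 difference of 0.60 to 0.81. Median ratio scaling moved most: 2 of 8 members were called in place of 4, 1 of the 7 tested members other than Fto in place of 3, and 2371 genes were higher and 2645 lower in place of 5127 and 1535, because it lowers 3KR against the deposited scale. Quantile normalization gave 3142 higher. The sign of Alkbh1, not called, turned after rescaling to the same sum (-0.0508), median ratio scaling (-0.133) and quantile normalization (-0.0685), and that of Alkbh3, not called, after median ratio scaling (-0.0596) and quantile normalization (-0.0514). Leaving out each library in turn gave log2 differences of -0.0277 to 0.129 for Alkbh1, -0.14 to 0.0388 for Alkbh7 and 0.73 to 0.81 for Fto, 4 to 5 members called, 5798 to 6638 genes called, a Fto share 7.30 to 8.49 percentage points higher in 3KR, and a log2 Fto to Alkbh5 ratio 0.90 to 0.97 higher. With the replicate block 6425 genes and 5 members were called, Alkbh6 being added (limma adjusted p = 0.04991), Fto stayed at 0.77 and the share difference at 7.79 points. Deviations of same-numbered libraries correlated at -0.015, 0.030 and -0.034, and only WT replicate 2 correlated best with its own number. No sign of pairing by number was seen, and correlations this weak, from 3 libraries per group, cannot exclude it. The unknown depth limits what can be said of Alkbh2, Alkbh4 and Alkbh7, near 1 FPKM.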
